A study of Mus musculus with 8 samples.

Results

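The cytochrome P450 genes of families 1 to 3 were taken as all symbols made of Cyp, a family digit from 1 to 3, a subfamily letter and a number, without the Cyp2b and Cyp3a subfamilies. This rule found 46 of 25489 genes listed in either assay, 24535 in RNA-seq and 25033 in Ribo-seq. All 46 were listed in both assays, where Cyp2c44 in RNA-seq and Cyp2c23 in Ribo-seq are 2 symbols of 1 gene, called Cyp2c23 here. They fell into 14 subfamilies, of which Cyp2c had 15 members, Cyp2d 9, Cyp2j 7, Cyp2a 4 and Cyp1a 2, and Cyp1b, Cyp2e, Cyp2f, Cyp2g, Cyp2r, Cyp2s, Cyp2t, Cyp2u and Cyp2w had 1 each. No gene of family 3 remained. Livers came from C57BL/6 mice, for which the sources used here give no genetic change, in postnatal week 25, and mice of both groups had eaten high-fat chow, in which fat gave 45% of the energy, from week 8 onward. The HF group had the diet alone and the HB group had 2% (w/v) betaine, a methyl donor, in the drinking water as well. The comparison of HB with HF asks what betaine changed in the liver on this diet, and mice on a standard diet were not analysed here. Each group had 2 libraries of polyadenylated RNA (RNA-seq) and 2 of ribosome-protected fragments, here called footprints (Ribo-seq). The labels describe RNA of several preparations as pooled in equal amounts while the study's methods speak of 2 mice per group, so a replicate is a library and the p-values measure the spread between libraries.

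A P450 enzyme holds a heme group and inserts 1 atom of molecular oxygen into its substrate. The enzymes of families 1 and 2 sit in the membrane of the endoplasmic reticulum, where P450 reductase (Por) and cytochrome b5 hand them electrons. Hepatocytes are their main site, and they oxidise drugs, pollutants, steroids, arachidonic and other fatty acids and, in mice, bile acids. In the mouse the Cyp2a, Cyp2c, Cyp2d and Cyp2j subfamilies are tandem clusters. Those of Cyp2a, Cyp2c and Cyp2d hold near copies, so that short reads may fit more than 1 gene.

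Values are RPKM, reads per kilobase of the gene, scaled to the size of the library, so levels can be compared between genes. The RNA-seq libraries held 11661207 to 22543472 reads on genes and the Ribo-seq libraries 141890 to 1056546, with both HB libraries the shallowest in Ribo-seq. In a gene of 1 kb, 3 reads were worth 0.133 to 0.257 RPKM in RNA-seq and 2.84 to 21.1 RPKM in Ribo-seq. Values resting on at most 3 reads are called at the floor, which covers counting error only, and the 95% intervals of log2 changes are limma's and measure the spread between libraries. Over all 10687 genes tested in RNA-seq, the median log2 change was -0.19, and over the 11190 tested in Ribo-seq it was -0.43. All 5 hepatocyte markers were tested, and their summed mRNA was 42489.7 and 45128 RPKM in HF against 52255 and 49377 RPKM in HB. Umod, Slc12a1 and Slc34a1, markers of kidney, were at 0 in all 4 RNA-seq libraries.

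Cyp2e1, which oxidises ethanol and other small molecules and is made around the central vein, was the most abundant member in both assays. Its mRNA level was 2232 and 2517 RPKM in HF and 4454 and 4531 RPKM in HB, so both HB libraries lay above both HF libraries. As deposited, its footprint level was 3596 and 4555 RPKM in HF and 2936 and 3604 RPKM in HB, and there the groups overlapped. Next by mean mRNA level came Cyp2d26, Cyp2d9, which hydroxylates testosterone, Cyp2d10, Cyp2a5, the coumarin hydroxylase, and Cyp2d13, at 763, 717, 609.8, 563 and 466 RPKM over the 4 libraries. These means pool the groups: Cyp2d13 stood above Cyp2a5, Cyp2d9 and Cyp2d10 in HF, at a mean of 713 RPKM, and below Cyp1a2, Cyp2c29, Cyp2f2, Cyp2a12 and Cyp2c50 in HB, at a mean of 218 RPKM. The footprint order was another one: Cyp2c50 (368 RPKM), Cyp2f2 (309 RPKM), which activates naphthalene, Cyp2d26 (214 RPKM) and Cyp2d9 (213 RPKM) followed Cyp2e1. Of the 46 members, 16 had a mean mRNA level of at least 100 RPKM and 11 a mean footprint level of at least 100 RPKM.

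**Figure D1:**
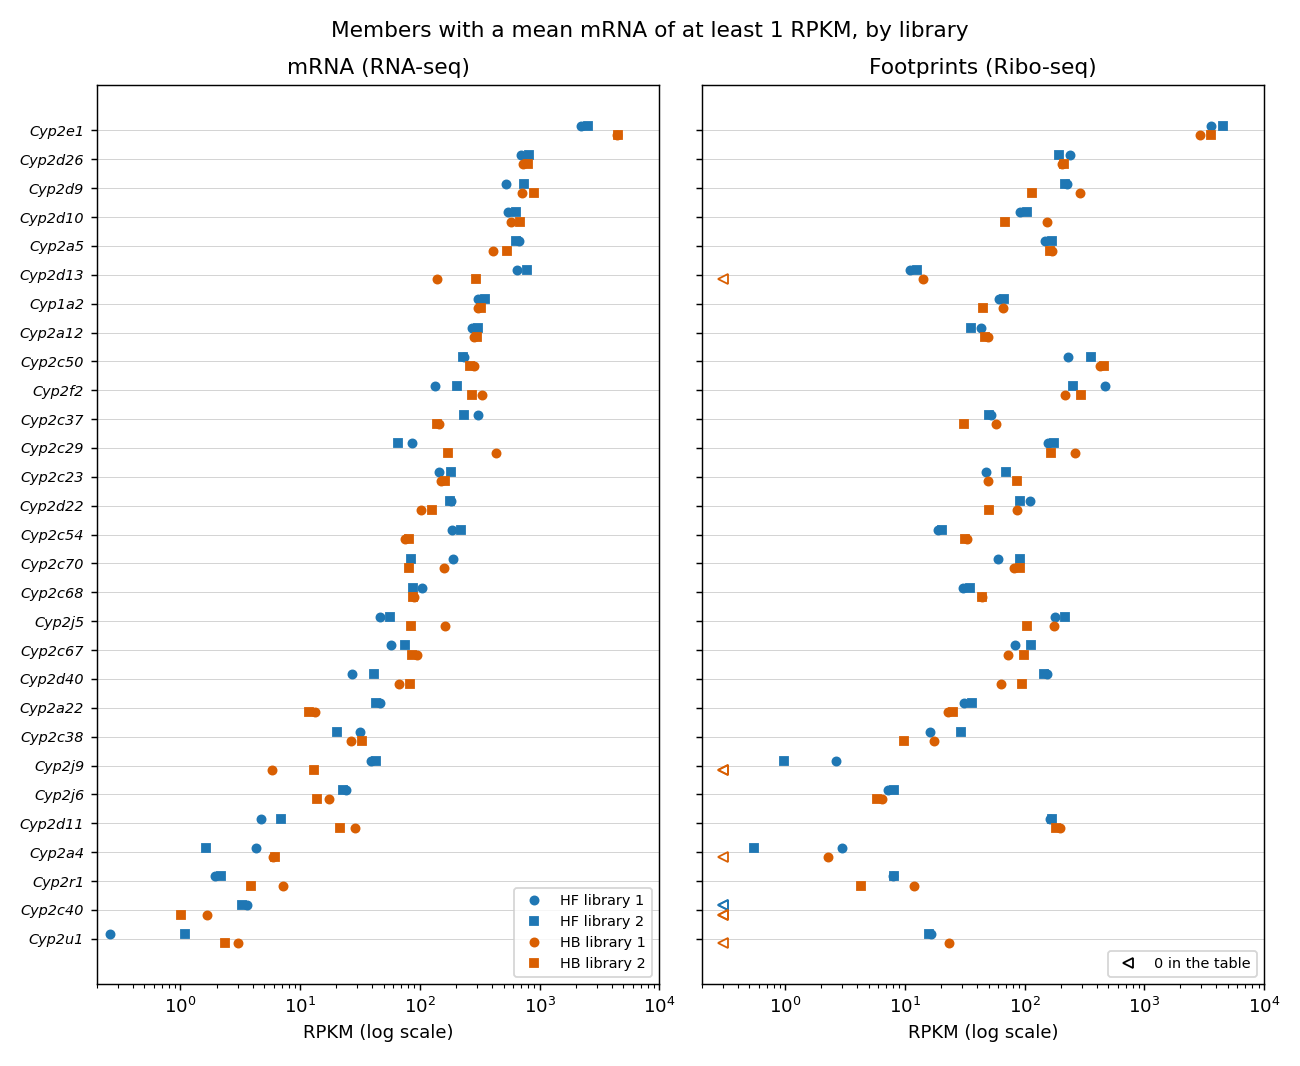
RPKM of the 29 members with a mean mRNA level of at least 1 RPKM, on a log axis, in each HF (blue) and HB (orange) library, for mRNA on the left and footprints on the right, and an open triangle marks a value of 0. Cyp2e1 is highest in both panels, Cyp2d13 and Cyp2j9 stand lower in footprints than in mRNA, and Cyp2d11 stands higher in footprints than in mRNA.

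By subfamily, the summed mRNA of all members was 7754 and 8590 RPKM in HF and 9814 and 10119 RPKM in HB. Cyp2e1 alone made 28.8% and 29.3% of this sum in HF and 45.4% and 44.8% in HB. The 9 Cyp2d genes made 33.9% and 37.3% in HF and 24.0% and 28.7% in HB. Without Cyp2e1 the sums of the groups overlapped, at 5522 and 6073 RPKM in HF and 5360.2 and 5588 RPKM in HB. The Cyp2a sum was 999 and 985 RPKM in HF against 710 and 853 RPKM in HB, and did not overlap between the groups. The Cyp2c sum was 1345 and 1201 RPKM in HF against 1462 and 1109.5 RPKM in HB and overlapped.

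In footprints the sum of all members was 6316 and 7299 RPKM in HF and 5772 and 6089 RPKM in HB. Cyp2e1 made 56.9% and 62.4% of it in HF and 50.9% and 59.2% in HB. Cyp2c was the one large subfamily whose footprint sum lay higher in both HB libraries, with 701 and 942 RPKM in HF and 1045 and 1021 RPKM in HB. The Cyp2j sum lay lower in both HB libraries, with 191 and 228 RPKM in HF and 185 and 123.4 RPKM in HB. These directions rest on the scaling as deposited. With libraries rescaled to a common sum of RPKM, the log2 ratio of the Cyp2c footprint sums, HB over HF, went from 0.33 to -0.50, and with log2 values shifted to a common median that of the Cyp2j sums went from -0.44 to -0.14 with overlapping groups. With the common median, the Cyp2a mRNA sums overlapped too, and the Cyp2c mRNA sum lay higher in both HB libraries (0.28). The mRNA sum without Cyp2e1 lay lower in both HB libraries with a common sum (-0.13) and higher in both with a common median (0.19). The Cyp2e1 mRNA sum stayed above in both HB libraries under both scalings, with log2 ratios of 0.88 to 1.19. Its footprint sum lay lower in both HB libraries with a common sum (log2 ratio -1.18). With a common median the Cyp2e1 footprint groups overlapped (0.02).

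**Figure D2:**
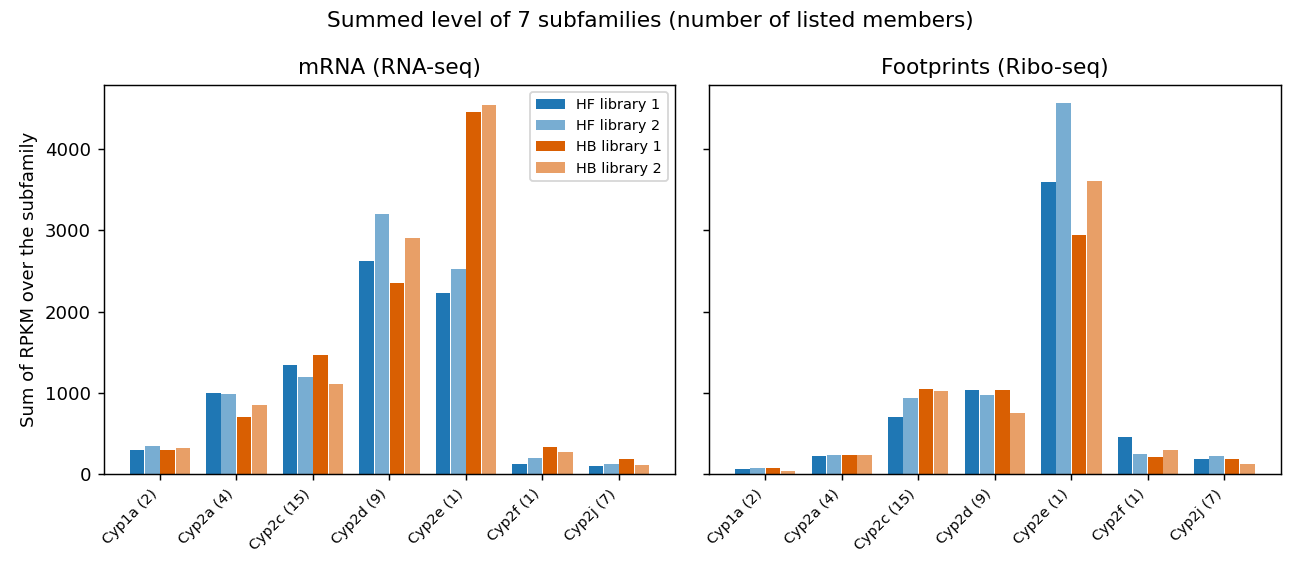
Sum of RPKM over the members of 7 subfamilies in each library, for mRNA on the left and footprints on the right, with the number of listed members in brackets. The Cyp2e bars are higher in both HB libraries for mRNA (4454 and 4531 against 2232 and 2517 RPKM) and overlap for footprints with the scaling as deposited.

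To see how far reads can be told apart, the listed transcripts of GENCODE M21 (GRCm38, the mm10 build) were compared. Cyp2d13 had no transcript there, and RefSeq lists it as a transcribed pseudogene at chr15:82636750-82642045. The sequence Cyp2d13 shares with other genes was therefore not measured, and how far its reads are its own is unknown. Of 161 pairs within subfamilies, 13 pairs made of 17 members were at least 90% identical in protein, 26 pairs at least 80% and 3 pairs at least 95%. The share of a transcript's 28-base windows, the length to which footprints were selected, that also lay in another gene was 86.7% for Cyp2c40, 70.5% for Cyp2c67, 62.3% for Cyp2d11, 61.9% for Cyp2a4, 61.5% for Cyp2a5, 57.2% for Cyp2d10 and 51.5% for Cyp2c50. For Cyp2d40 it was 48.2%, and 31.5% of the Cyp2d40 windows lay in Cyp2d41-ps. The share was 7.36% for Cyp2e1 and 0% for Cyp2f2, Cyp2c23 and Cyp2r1. How the authors placed reads that fit several genes is not given in the sources used here, so single values of such members are uncertain, while a split of reads within a pair of genes of like length leaves the sum of the pair as it is.

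The 4 pairs on which the results turn are shown by 2 coding windows of 28 bases each, the first that both genes hold and the one in which they differ most. Capitals mark the bases that differ from the other gene of the pair. Cyp2a12, a testosterone hydroxylase, and Cyp2a22 share the window at chr7:27029139-27029166 (plus strand, exon 1) and chr7:26939299-26939326 (minus strand, exon 1), and they differ by 4 bases in the window at chr7:27030783-27030810 and chr7:26938154-26938181, in exon 3 of each.
Cyp2a12 and Cyp2a22: ctggccttcctgagtgtgatggtcttgg
Cyp2a12: tcTatagccacactgaGAgatttcggcA
Cyp2a22: tcCatagccacactgaAGgatttcggcT
Cyp2a5 and Cyp2a4 share their first 28 coding bases at chr7:26835364-26835391 and chr7:26307218-26307245 (plus strand, exon 1), and differ by at most 3 bases, as at chr7:26837195-26837222 and chr7:26309032-26309059 in exon 4.
Cyp2a5 and Cyp2a4: atgctgacctcaggactcctcctggtgg
Cyp2a5: tcactGcttCgaatgatgctgggaagcT
Cyp2a4: tcactTcttAgaatgatgctgggaagcC
Cyp2c50 and Cyp2c54, which oxidise arachidonic and linoleic acid, share a window with Cyp2c37 as well, at chr19:40089730-40089757 (plus strand) and chr19:40073754-40073781 (minus strand) in exon 1, and differ by 9 bases at chr19:40096720-40096747 and chr19:40047615-40047642 in exon 6.
Cyp2c50 and Cyp2c54: ctctcctgtctgtttctcctctcactct
Cyp2c50: AaCgGcaaCTatccAttgaaaaataGGC
Cyp2c54: GaTgAcaaTCatccTttgaaaaataATT
Cyp2d10 and Cyp2d11 share their first 28 coding bases at chr15:82407095-82407122 and chr15:82393920-82393947 (minus strand, exon 1), a window that also lies in the small RNA genes Gm27331 and Mir7684, and differ by 12 bases at chr15:82402965-82402992 and chr15:82389213-82389240 in exon 9.
Cyp2d10 and Cyp2d11: atggagctgctgactggggctggcctgt
Cyp2d10: AGgccTagAaacCTtGgTgtcTTtCctT
Cyp2d11: CAgccCagCaacTAtAgAgtcCAtGctA
Of the coding windows compared within single exons, 51.5% were identical in Cyp2a12 and Cyp2a22, 62.9% in Cyp2a5 and Cyp2a4, 38.5% in Cyp2c50 and Cyp2c54 and 43.7% in Cyp2d10 and Cyp2d11. None of the windows that differ was found in another gene.

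Of the 46 members, 29 had a mean mRNA level of at least 1 RPKM and were tested, 13 were below it and 4 (Cyp2c66, Cyp2j12, Cyp2j13 and Cyp2w1) had no mRNA read in any library. Under the thresholds of the study, a log2 change beyond 1 with an unadjusted p under 0.001, Cyp2d11 rose in HB and Cyp2j9, Cyp2d13, Cyp2a22 and Cyp2c54 fell. That is 1 of 29 higher and 4 of 29 lower, beside 2.3% and 6.56% of all genes. At an adjusted p under 0.05 with the same fold, 6 members were higher and the same 4 were lower, beside 5.01% and 12.7% of all genes, and the 5 others that rose were Cyp2c29, Cyp2u1, Cyp2j5, Cyp2d40 and Cyp2r1. The log2 changes of the 29 members ran from -2.10 to 1.94 with a median of 0.01, against a median of -0.19 over all genes, and 20 of 29 lay above that median. Both HB libraries lay above both HF libraries in 11 members and below in 9, beside 24.8% and 43.3% of all genes. With log2 values shifted to a common median, the members split into 5 higher and 2 lower, beside 5.05% and 2.72% of all genes, as Cyp2c54 and Cyp2d13 no longer passed. Without the filter on low values limma called 0% of all genes at an adjusted p under 0.05, with 4919 of 16758 at an unadjusted p under 0.05, so none of the 10 members kept that call, and the smallest adjusted p among the named members was 0.0539. Of the members that were higher at the adjusted threshold alone, with the filter in place, Cyp2c29 passed it without any of the libraries. Without the first HF library Cyp2d40, Cyp2j5, Cyp2r1 and Cyp2u1 no longer did (adjusted p of 0.227, 0.112, 0.101 and 0.133), without the first HB library Cyp2j5, Cyp2r1 and Cyp2u1 no longer did (0.0617, 0.0993 and 0.0604), and without the second HB library Cyp2d40 was short of the fold at 0.98.

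In the Cyp2d cluster on chromosome 15, 7 of 9 members were tested, and their mRNA moved in both directions. Cyp2d11 (chr15:82389154-82394022) had an mRNA level of 4.69 and 6.97 RPKM in HF and 28.7 and 21.7 RPKM in HB, on 87 and 131 reads against 1027 and 623 reads. The groups did not overlap, and the log2 change was 1.94 ± 0.28 (SE, n = 2 libraries per group, limma adjusted p = 0.00525). Cyp2d10, its nearest copy, was at 541 and 634 RPKM in HF and 580.3 and 684 RPKM in HB, so the groups overlapped (log2 change 0.10 ± 0.28, adjusted p = 0.805). The sum of Cyp2d10 and Cyp2d11 was 546 and 641 RPKM in HF and 609 and 705 RPKM in HB, since Cyp2d10 made nearly all of it.

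Cyp2d13, the pseudogene, went the other way, with 644 and 783 RPKM in HF and 139.6 and 297 RPKM in HB. Both HB values were under the lower HF value (log2 change -1.80 ± 0.36, adjusted p = 0.00931). Cyp2d40 (chr15:82759833-82764183) was at 27.3 and 41.7 RPKM in HF and 67.3 and 82.8 RPKM in HB without overlap (log2 change 1.12 ± 0.28, adjusted p = 0.0197). The abundant Cyp2d26 (706, 822, 727 and 796 RPKM) and Cyp2d9 (521, 735, 711 and 899.5 RPKM, in the order of HF and then HB libraries) overlapped between the groups, with adjusted p-values of 0.996 and 0.387. Cyp2d22 was at 182 and 177 RPKM in HF and 101 and 127 RPKM in HB and did not pass (log2 change -0.65 ± 0.26, adjusted p = 0.0894).

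Cyp2a22 (chr7:26931631-26939384) fell from 46.6 and 43.3 RPKM in HF to 13.2 and 11.9 RPKM in HB. The log2 change was -1.76 ± 0.24 (adjusted p = 0.00523), and the call under the thresholds of the study held under all 13 alternatives. Its near copy Cyp2a12 (chr7:27029081-27037375) stood at 273 and 306 RPKM in HF and 282 and 300.3 RPKM in HB, which overlap (log2 change 0.01 ± 0.26, adjusted p = 0.978). So the summed mRNA of this pair was 319 and 349 RPKM in HF and 295 and 312 RPKM in HB, also without overlap but much closer. The lengths recovered for the pair differ (1664 bases for Cyp2a12, 2226 for Cyp2a22), so a shift of reads between them would change its sums. Cyp2a5 was at 675 and 634 RPKM in HF and 408 and 535 RPKM in HB (log2 change -0.48 ± 0.28, adjusted p = 0.225). Cyp2a4, which hydroxylates testosterone, was low at 4.30 and 1.63 RPKM in HF and 5.97 and 6.13 RPKM in HB (log2 change 0.92 ± 0.33, adjusted p = 0.0664). The Cyp2a4 change was 1.42 without the first HF library and 0.41 without the second.

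In Cyp2c, on chromosome 19, 10 of 15 members were tested. Cyp2c54 (chr19:40037940-40073827) fell from 186 and 221 RPKM in HF to 74.9 and 81.1 RPKM in HB (log2 change -1.37 ± 0.26, adjusted p = 0.00756). Cyp2c37, which shares sequence with it, was at 307 and 234 RPKM in HF and 145 and 140.3 RPKM in HB, and its change of -0.91 ± 0.27 did not reach the fold (adjusted p = 0.0342). The other gene of this trio, Cyp2c50, was at 234 and 228 RPKM in HF and 283 and 263 RPKM in HB (log2 change 0.24 ± 0.26, adjusted p = 0.512). Their sum was 727 and 683 RPKM in HF and 502 and 485 RPKM in HB, so the trio as a whole was lower in both HB libraries. Cyp2c54 was no longer called without the second HF library (log2 change -1.25, unadjusted p = 0.00578).

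Cyp2c29 (chr19:39269405-39330713), which makes epoxides of arachidonic acid and responds to the receptor CAR, was the Cyp2c gene that rose. It was at 85.2 and 65.4 RPKM in HF and at 436 and 172 RPKM in HB, where the HB libraries differed from each other by more than the HF libraries did. The log2 change was 1.86 ± 0.40 (adjusted p = 0.0114), and 1.19 without the first HB library. In the other group of near copies, Cyp2c67 (57.2, 75.3, 94.4 and 85.6 RPKM) and Cyp2c68 (104, 87.3, 89.9 and 87.0 RPKM) did not pass, and Cyp2c40, with 86.7% of its windows shared, was at 3.62 and 3.29 RPKM in HF and 1.65 and 1.01 RPKM in HB (log2 change -0.95 ± 0.25, adjusted p = 0.0231). The summed mRNA of Cyp2c40, Cyp2c67, Cyp2c68 and Cyp2c69 was 167 and 166 RPKM in HF and 186 and 174 RPKM in HB. Among the Cyp2c genes with few shared windows, Cyp2c70, which makes the muricholic acids of mouse bile, was at 189 and 84.3 RPKM in HF and 159 and 80.8 RPKM in HB, so its spread within groups was larger than any difference between them.

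In Cyp2j, on chromosome 4, 3 of 7 members were tested and 2 of them moved apart. Cyp2j9 (chr4:96568429-96591578) fell from 39.1 and 43.2 RPKM in HF to 5.86 and 13.0 RPKM in HB, the largest fall of a tested member (log2 change -2.10 ± 0.34, adjusted p = 0.00526). Cyp2j5 (chr4:96628773-96664154), an arachidonic acid epoxygenase of liver and kidney, rose from 46.3 and 56.5 RPKM in HF to 161 and 85.1 RPKM in HB (log2 change 1.18 ± 0.33, adjusted p = 0.0271). Without the first HB library the change of Cyp2j5 was 0.72. Cyp2j6 did not pass, at 24.1 and 22.6 RPKM in HF and 17.4 and 13.9 RPKM in HB. Less than 6% of the 28-base windows of these 3 genes lay in another gene.

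Among the subfamilies of 1 gene, Cyp2e1 had a log2 change of 0.92 ± 0.31 (adjusted p = 0.0518) and Cyp2f2 of 0.85 ± 0.30 (adjusted p = 0.0584), so neither reached the fold or the adjusted threshold although their groups did not overlap. Cyp2f2 was at 134 and 205 RPKM in HF and 331 and 273 RPKM in HB. Cyp2r1, the vitamin D hydroxylase of the endoplasmic reticulum, rose from 1.95 and 2.18 RPKM in HF to 7.18 and 3.90 RPKM in HB (log2 change 1.05 ± 0.29, adjusted p = 0.0277). Cyp2u1, a fatty acid hydroxylase, rose from 0.258 and 1.09 RPKM to 3.04 and 2.35 RPKM (log2 change 1.18 ± 0.29, adjusted p = 0.0169), on 7 and 30 reads against 160 and 99 reads. In family 1, Cyp1a2, a target of the aryl hydrocarbon receptor that oxidises caffeine and aromatic amines, was at 305 and 353 RPKM in HF and 306 and 325 RPKM in HB (log2 change -0.06 ± 0.26, adjusted p = 0.895).

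In Ribo-seq 33 members were tested, 9 lay below 1 RPKM and 4 (Cyp2c40, Cyp2c65, Cyp2s1 and Cyp2w1) had no footprint in any library. By limma, no member was called in either direction (a log2 change beyond 1 with an unadjusted p under 0.05), beside 1.58% of all genes higher and 7.86% lower, and 1 member, Cyp2d40, had an unadjusted p under 0.05, as had 1122 of 11190 genes. At an adjusted p under 0.05, limma called 0% of all genes in either direction. With voom on reads recovered from the RPKM, 1 member was higher, Cyp2d34, on 2 footprints in 1 library, beside 3.91% of all genes higher. The log2 changes of the 33 members ran from -1.80 to 1.27 with a median of -0.18, against -0.43 over all genes, and 3 of them, or 9.09%, lay beyond 1 in either direction, against 31.2% of all genes, which had a median of 39 footprints over the 4 libraries beside 170 for the members. Both HB libraries were above both HF libraries in 5 members and below in 6, beside 9.07% and 33.2% of all genes. With libraries rescaled to a common sum, 8 of 33 members were called lower and none higher, beside 24.3% and 0.364% of all genes, and the median over all genes went to -1.17. The members' median depth was 36, 98, 21 and 11 footprints in the libraries HF1, HF2, HB1 and HB2, and in HB2 10 of the 33 were at the floor.

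For the members whose mRNA rose, the footprint changes were estimated as smaller or below zero. Cyp2d11 was at 164 and 171 RPKM in HF and 198 and 182 RPKM in HB, a log2 change of 0.18 with a 95% interval of -0.47 to 0.83. Its mRNA change of 1.94 lies above that interval, and with a common sum the footprint change was -0.69. Cyp2c29 was at 156 and 176 RPKM in HF and 261 and 166 RPKM in HB (log2 change 0.33, interval -0.52 to 1.18), a direction that turned to -0.54 with a common sum. Cyp2j5 was at 179 and 216 RPKM in HF and 175 and 104 RPKM in HB, with both HB values below the HF values (log2 change -0.54, interval -1.45 to 0.38). The Cyp2j5 change was -0.91 without the first HB library and -0.17 without the second.

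Cyp2d40 fell below in both HB libraries while its mRNA rose, with 154 and 145 RPKM in HF and 63.5 and 95.9 RPKM in HB on 66, 169, 18 and 15 footprints. Its log2 change was -0.93 ± 0.32 (unadjusted p = 0.0337, adjusted p = 0.493), just short of the fold. Of the 28-base windows of Cyp2d40, 48.2% lay in another gene, and the part of shared reads was not tested. Cyp2e1, with the most footprints (2458, 8479, 1330 and 901), had a log2 change of -0.31 and an interval of -1.25 to 0.62. With a common sum the log2 ratio of its footprint sums was -1.18, and with a common median its change was 0.01. Cyp2f2 had a log2 change of -0.43 with an interval of -1.46 to 0.59. It was -0.002 without the first HF library and -0.87 without the second. Footprints of Cyp2r1 (5, 14, 5 and 1) and Cyp2u1 (15, 39, 14 and 0) were too few for a narrow interval, which ran from -1.76 to 1.52 for Cyp2r1 and from -5.81 to 2.21 for Cyp2u1, and both intervals include the mRNA change of the gene.

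None of the members whose mRNA fell was called in footprints, and their estimates had either sign. Cyp2a22 was lower in both HB libraries, at 31.3 and 36.1 RPKM in HF and 22.7 and 25.3 RPKM in HB (log2 change -0.47, interval -1.32 to 0.38). Cyp2c54 was higher in both, at 18.9 and 20.3 RPKM in HF and 32.9 and 31.8 RPKM in HB on 13, 38, 15 and 8 footprints (log2 change 0.70, interval -0.16 to 1.55), which turned to -0.14 with a common sum. Its partner Cyp2c50 was also higher in both, at 230.2 and 356 RPKM in HF and 427 and 459 RPKM in HB (log2 change 0.63, interval -0.20 to 1.45, and -0.24 with a common sum). Cyp2j9 and Cyp2d13 had hardly any footprints. Cyp2j9 was at 2.65 and 0.974 RPKM in HF and 0 in both HB libraries, on 2, 2, 0 and 0 footprints, all at the floor. Cyp2d13 had 7, 22, 6 and 0 footprints on 5180 to 15238 mRNA reads.

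Among the abundant members, Cyp2a5 (147, 168, 170.1 and 164 RPKM), Cyp2d26 (241, 195, 206 and 214 RPKM) and Cyp2a12 (43.4, 35.8, 49.1 and 46.6 RPKM) had like footprint levels in the 4 libraries as deposited, with log2 changes of 0.09, -0.05 and 0.27. With a common sum these changes were -0.78, -0.92 and -0.58, and the Cyp2a sum was 327 and 303 in HF against 222 and 142 in HB. Cyp1a2 was at 61.3 and 67.0 RPKM in HF and 65.8 and 44.7 RPKM in HB. The summed footprints of Cyp2a12 and Cyp2a22 were 74.6 and 72.0 RPKM in HF and 71.8 and 71.9 RPKM in HB, and those of the trio Cyp2c37, Cyp2c50 and Cyp2c54 were 301 and 427 RPKM in HF and 518 and 522 RPKM in HB.

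**Figure D3:**
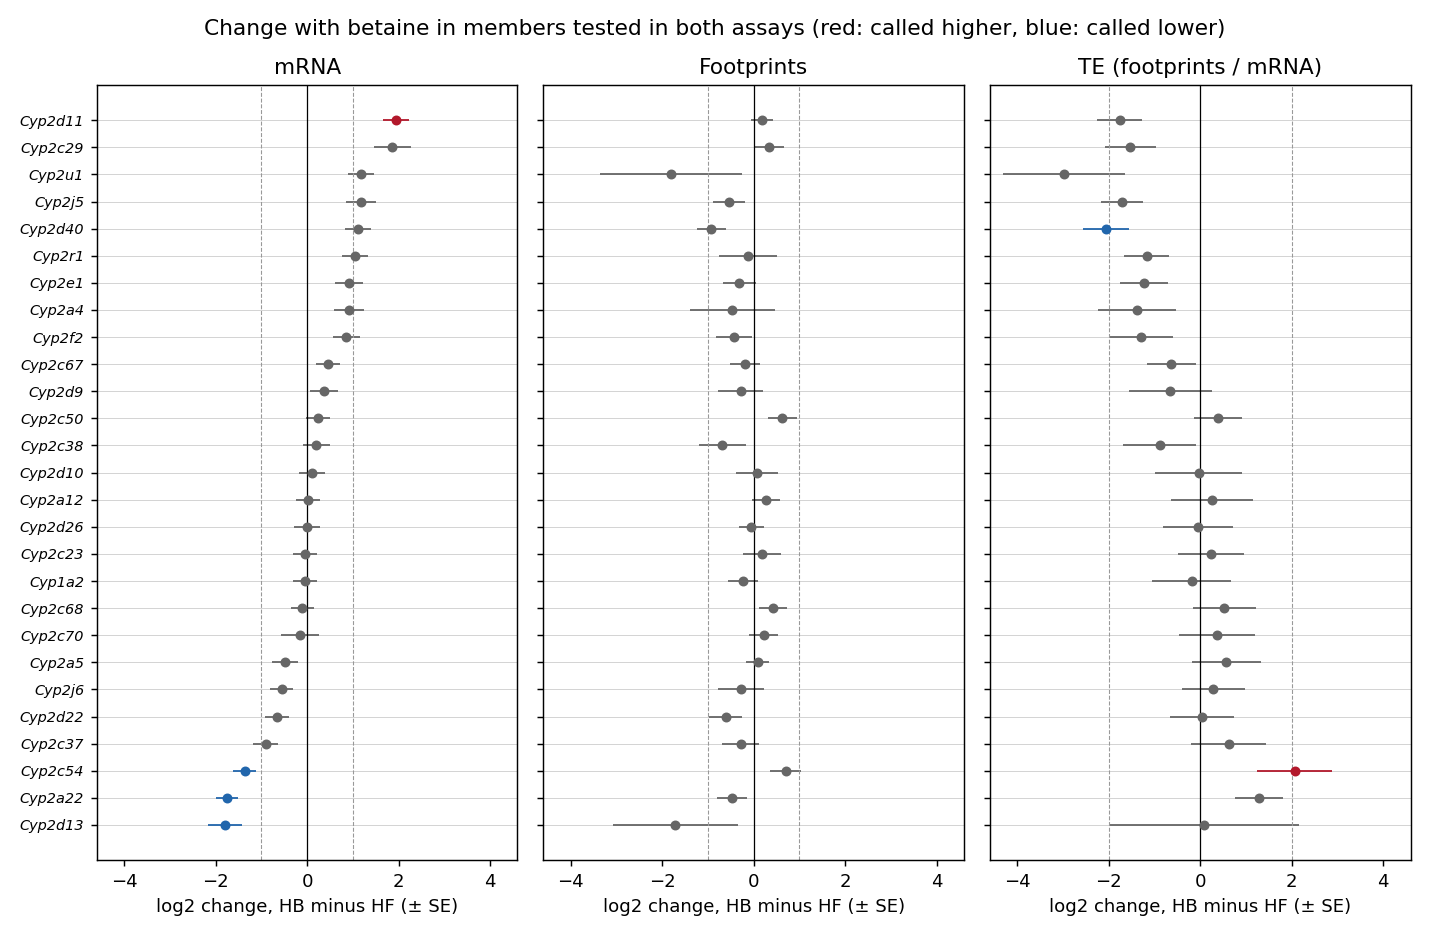
Log2 change, HB minus HF, with its SE for the 27 members tested in both assays, ordered by the mRNA change, in mRNA, footprints and translation efficiency (TE), with dashed lines at the fold thresholds of 1, 1 and 2. The mRNA panel spans -1.80 to 1.94 with 18 of 27 members within 1 of zero, and in footprints 25 of 27 lie within 1 of zero, with Cyp2u1 at -1.80 and Cyp2d13 at -1.71.

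Translation efficiency (TE) is the ratio of the footprint RPKM to the mRNA RPKM of libraries with the same group and number, and a number does not show that 2 libraries came from 1 animal. The change was tested on log2 of the ratio after adding 1 to both values. Of 27 members tested, Cyp2d40 fell and Cyp2c54 rose under the thresholds of the study, a log2 change beyond 2 with an unadjusted p under 0.05. That is 1 of 27 in each direction, beside 4.6% of all genes lower and 1.49% higher. At an adjusted p under 0.05, 0% of all genes were called in either direction. The TE of Cyp2d40 was 5.65 and 3.48 in HF and 0.943 and 1.16 in HB (log2 change -2.05 ± 0.50, unadjusted p = 0.00637, adjusted p = 0.333). The TE of Cyp2c54 was 0.101 and 0.0919 in HF and 0.439 and 0.392 in HB (log2 change 2.07 ± 0.82, unadjusted p = 0.0452, adjusted p = 0.404). The Cyp2c54 call was lost under 6 of 13 alternatives, with a change of 1.27 to 2.14 in those 6 and an unadjusted p of 0.228 without the first HF library, and the Cyp2d40 call was lost under 3 of 13, among them without the first HF library (-1.71) and without the first HB library (-1.91).

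A further 4 members had an unadjusted p under 0.05 without reaching the fold, which makes 6 of 27 with such a p beside 12.2% of all genes. The TE of Cyp2d11 was 34.9 and 24.5 in HF and 6.92 and 8.39 in HB (log2 change -1.76 ± 0.50, unadjusted p = 0.012). The TE of Cyp2j5 was 3.86 and 3.82 in HF and 1.09 and 1.23 in HB (-1.72 ± 0.46, unadjusted p = 0.00958). For Cyp2c29 it was 1.83 and 2.69 in HF and 0.599 and 0.964 in HB (-1.53 ± 0.56, unadjusted p = 0.0329). For Cyp2a22 it was 0.671 and 0.835 in HF and 1.72 and 2.12 in HB (1.29 ± 0.52, unadjusted p = 0.0479). The adjusted p was at least 0.333 in all 4. Since TE holds the mRNA value in its denominator, a member whose mRNA moved and whose footprints did not must show a TE change of the opposite sign, so these are not separate results. Cyp2e1 had a TE of 1.61 and 1.81 in HF and 0.659 and 0.795 in HB, a log2 change of -1.24 ± 0.52 (unadjusted p = 0.0557). With a common sum, 7 of 28 members including Cyp2e1 were called lower in TE, beside 13.8% of all genes.

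The TE levels themselves differed between members far more than between groups. As the ratio of mean RPKM over the 4 libraries of each assay, TE ran from 0.0203 for Cyp2d13 to 11.5 for Cyp2d11, with a median of 0.578 over the 27 members, against 0.976 over 9456 genes, and 11 members lay above that median. By subfamily, summed footprints over summed mRNA were 0.225 to 0.344 for Cyp2a, 0.260 to 0.439 for Cyp2d, 0.146 to 0.244 for Cyp1a and 0.521 to 0.920 for Cyp2c across the 4 library pairs. Cyp2j had 1.73 and 1.86 in HF and 1.01 and 1.10 in HB. Among near copies the ratios were 0.151 for Cyp2a12 and 1.00 for Cyp2a22, 0.232 for Cyp2c37, 1.46 for Cyp2c50 and 0.185 for Cyp2c54, and 0.171 for Cyp2d10 and 11.5 for Cyp2d11. They were 1.18 for Cyp2c67 and 0.416 for Cyp2c68, and 0.288 for Cyp2a5 and 0.323 for Cyp2a4, where Cyp2a4 rests on 2, 1, 1 and 0 footprints, all at the floor. Cyp2d11 with a mean mRNA of 15.5 RPKM had 179 RPKM of footprints, and Cyp2d10 with 609.8 RPKM of mRNA had 104 RPKM. Of the 50-base windows of Cyp2d11 37.2% lay in another gene, against 62.3% of its 28-base windows, and the labels and the study's methods differ on the read length of RNA-seq. The part of shared reads in these ratios was not tested.

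**Figure D4:**
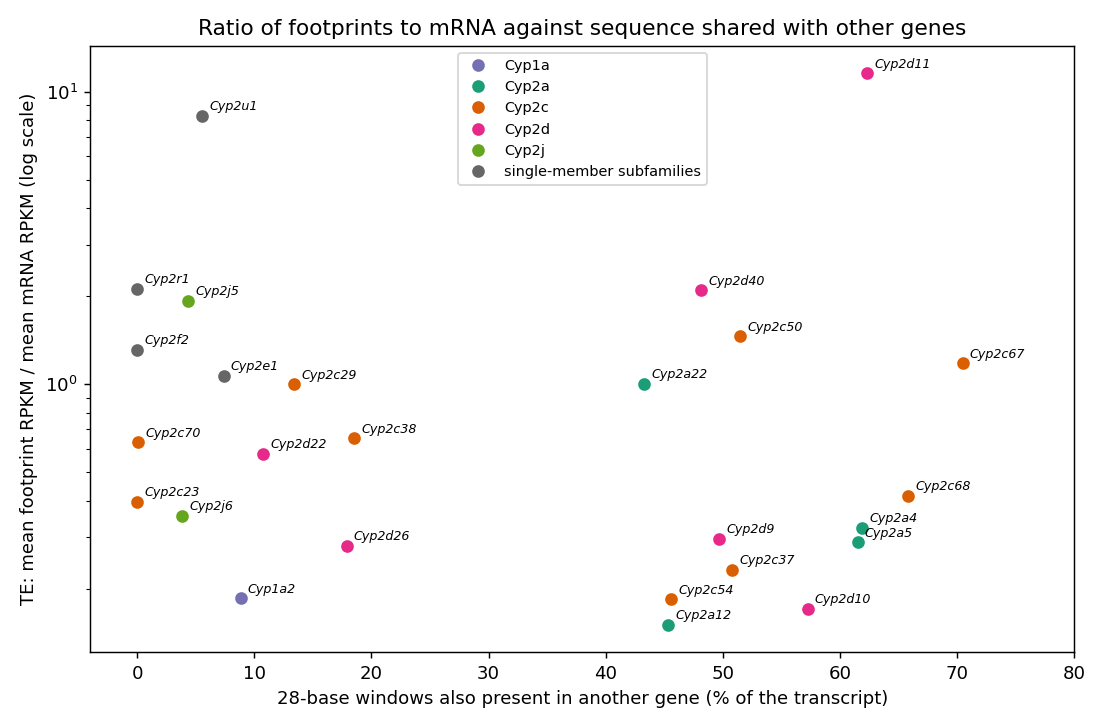
TE, as mean footprint RPKM over mean mRNA RPKM on a log axis, against the share of 28-base windows of a transcript that also lie in another gene, for 26 members with a listed transcript, colored by subfamily. Members with at most 40% shared windows lie between 0.185 (Cyp1a2) and 8.28 (Cyp2u1), and those with over 40% shared windows between 0.151 (Cyp2a12) and 11.5 (Cyp2d11).

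For 2 pairs in which 1 gene was called in mRNA and its near copy was not, the upstream sequences are shown as the 250 bases before the start of transcription that RefSeq gives (GRCm38.p6), which were found for 38 of the 46 members. Capitals mark bases that are not matched in the other gene of the pair. Cyp2a12 (chr7:27028840-27029089, plus strand) and Cyp2a22 (chr7:26939387-26939636, minus strand) matched in 216 of 250 bases, or 86.4%. The letters TATAAA lay 39 bases before the start in Cyp2a12 and 28 in Cyp2a22. The windows are therefore offset, and capitals at their ends mark this offset as well as base changes. The Cyp2a12 window also runs past the GENCODE start of the gene, chr7:27029081.
Cyp2a12: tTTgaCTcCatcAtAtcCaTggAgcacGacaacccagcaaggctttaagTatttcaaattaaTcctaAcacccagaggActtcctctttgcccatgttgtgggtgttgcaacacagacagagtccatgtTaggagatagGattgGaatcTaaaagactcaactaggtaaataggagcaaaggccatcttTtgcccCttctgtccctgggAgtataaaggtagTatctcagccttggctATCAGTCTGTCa
Cyp2a22: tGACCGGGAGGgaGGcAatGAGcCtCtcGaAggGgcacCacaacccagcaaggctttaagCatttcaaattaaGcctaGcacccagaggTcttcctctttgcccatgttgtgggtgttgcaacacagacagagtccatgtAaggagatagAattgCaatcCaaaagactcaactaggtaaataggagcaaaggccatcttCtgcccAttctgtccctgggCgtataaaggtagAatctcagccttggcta
Cyp2d10 (chr15:82407195-82407444) and Cyp2d11 (chr15:82394023-82394272), both on the minus strand, matched in 201 of 250 bases, or 80.4%.
Cyp2d10: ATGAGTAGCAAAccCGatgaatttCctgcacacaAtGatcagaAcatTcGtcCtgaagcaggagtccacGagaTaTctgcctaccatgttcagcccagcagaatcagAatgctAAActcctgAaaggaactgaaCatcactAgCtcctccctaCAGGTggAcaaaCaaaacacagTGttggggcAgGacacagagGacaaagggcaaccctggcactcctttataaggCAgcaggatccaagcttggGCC
Cyp2d11: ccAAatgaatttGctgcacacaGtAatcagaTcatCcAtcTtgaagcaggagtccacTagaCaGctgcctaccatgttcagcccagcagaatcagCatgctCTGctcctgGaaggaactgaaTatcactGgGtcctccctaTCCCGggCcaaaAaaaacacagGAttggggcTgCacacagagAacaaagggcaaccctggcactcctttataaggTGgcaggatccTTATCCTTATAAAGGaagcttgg
Of the pairs not printed, Cyp2a5 and Cyp2a4, neither of which was called, matched in 98% of these bases, Cyp2d9 and Cyp2d11 in 87.6% and Cyp2c37 and Cyp2c50 in 86.0%. The letters TATAAA, searched on both strands, were found in 20 of 38 member windows and in 12.4% of all 32851 windows of this length. GCGTG, the core letters bound by the aryl hydrocarbon receptor, was found in 7 of 38 (Cyp1a1 and Cyp1b1 among them, Cyp1a2 not) and in 28.2% of all, and GTTAAT, a part of the HNF1 site, in 6 of 38 and in 6.43% of all. A match is a description of the letters and shows no binding.

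The members below 1 RPKM of mRNA included genes known from other tissues or from induction. Cyp1a1, the AhR-induced member of family 1, was at 0.556 and 0.355 RPKM in HF and 0.152 and 0.253 RPKM in HB, while its footprints were 10.8, 6.86, 8.90 and 2.69 RPKM on 11, 19, 6 and 1 reads. Cyp2d12 had 0.581, 0.469, 0.164 and 0.238 RPKM of mRNA on 6 to 11 reads and 38.3, 40.9, 18.4 and 28.6 RPKM of footprints on 6 to 64 reads. So both HB libraries were lower than both HF libraries in each assay for Cyp2d12, with a footprint change of -0.76 (interval -1.72 to 0.20). Cyp1b1 (0.0519 to 0.0836 RPKM), Cyp2s1 (0.0323 to 0.294 RPKM), Cyp2t4 (0.0567 to 0.112 RPKM) and Cyp2g1 (0.278 to 1.64 RPKM), the highest members of their subfamilies, were low in mRNA, on 1 to 36 reads. Cyp2w1 had no read in any of the 8 libraries.

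Among genes that serve P450 enzymes, 1 of 7 electron transfer partners was called higher in mRNA and 1 lower, beside 2.3% and 6.56% of all genes. Cyb5b, a cytochrome b5 of the outer mitochondrial membrane, rose from 28.4 and 26.9 RPKM in HF to 114 and 73.8 RPKM in HB (log2 change 1.69 ± 0.28, adjusted p = 0.00564), and Fdxr, the reductase that serves mitochondrial P450 enzymes, fell from 68.8 and 82.5 RPKM to 16.6 and 30.2 RPKM (-1.70 ± 0.31, adjusted p = 0.00698). Por itself was at 391 and 279.9 RPKM in HF and 217 and 327 RPKM in HB, with overlap. The median of the list was 0.31, against -0.19 over all genes. Ephx1, which hydrolyses the epoxides that P450 enzymes make, rose from 88.8 and 124 RPKM to 238 and 311 RPKM (1.37 ± 0.29, adjusted p = 0.0104), and Ephx2 did not pass. Of 8 genes of heme synthesis none passed under the thresholds of the study and 1, Uros, was lower at the adjusted threshold (-1.10, adjusted p = 0.0131), with a list median of 0.11. At the adjusted threshold 12.7% of all genes were lower. Cyb5b, Fdxr and Ephx1 kept their direction under 13 alternatives and their call under 12, 11 and 9 of them. The Ephx1 call was lost without the first HF library (1.13) and without the second HB library (1.18), and none of these lists had a gene called in footprints.

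Among the regulators, 1 of 16 nuclear receptors and liver factors rose and 1 fell, beside 2.3% and 6.56% of all genes. At an adjusted p under 0.05 the numbers were 1 and 4, beside 5.01% and 12.7% of all genes. The list median was -0.42, against -0.19 over all genes. The same shares apply to the mRNA calls of the lists that follow. Onecut1 rose from 1.13 and 0.464 RPKM in HF to 25.3 and 7.01 RPKM in HB (3.04 ± 0.47, adjusted p = 0.00526), and the bile acid receptor Nr1h4 fell from 224 and 176 RPKM to 47.2 and 63.6 RPKM (-1.84 ± 0.28, adjusted p = 0.00526). Nr1i3, which encodes CAR, was at 260.0 and 333 RPKM in HF and 67.3 and 159 RPKM in HB (-1.50 ± 0.38, adjusted p = 0.0203), and Nr1i2, which encodes PXR, at 133 and 129 RPKM in HF and 44.9 and 67.2 RPKM in HB (-1.23 ± 0.28, adjusted p = 0.0128), and both passed the adjusted threshold alone, as did Tef (-1.10, adjusted p = 0.0203). Of 4 tested genes of the AhR axis, Ahr fell from 16.9 and 11.7 RPKM to 3.77 and 5.95 RPKM (-1.39 ± 0.29, adjusted p = 0.0106) and none was called higher. Nqo1 of this list was at 3.04 and 2.78 RPKM in HF and 6.63 and 5.17 RPKM in HB without overlap. Its log2 change of 0.81 (limma adjusted p = 0.0389) was short of the fold. Of 7 tested genes of the growth hormone axis, Bcl6 fell from 12.9 and 24.9 RPKM to 4.52 and 6.15 RPKM (-1.59 ± 0.33, adjusted p = 0.0098), and Stat5a was lower at the adjusted threshold alone (-1.05, adjusted p = 0.0149). Of 7 male-biased liver genes, Cyp4a12a rose (1.32 ± 0.28, adjusted p = 0.0106) and Selenbp2 fell (-1.46 ± 0.29, adjusted p = 0.00928), and of 2 tested female-biased genes none passed. In footprints 1 male-biased gene, Hsd3b5, was called higher (log2 change 2.23, unadjusted p = 0.0424), beside 1.58% of all genes. Its mRNA change of 2.07 passed the adjusted threshold alone (adjusted p = 0.0484). Hsd3b5 mRNA was at 0.427 and 8.68 RPKM in HF, far apart, and 17.6 and 12.1 RPKM in HB.

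The mRNA directions of the 6 called regulators and male-biased genes held under 13 alternatives. The call of Nr1h4 was kept under 13 of them, that of Onecut1 under 12 and those of Ahr, Bcl6, Cyp4a12a and Selenbp2 under 9 each. Without the first HB library the Onecut1 change was 2.18 rather than 3.04, and the calls of Ahr (-1.12), Bcl6 (-1.40) and Selenbp2 (-1.10) were lost. Without the second HB library the call of Cyp4a12a was lost (1.20). Without the first HF library that of Ahr was lost (-1.14), and without the second HF library those of Bcl6 (-1.14), Cyp4a12a (1.04) and Selenbp2 (-1.38).

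Markers of the zones and of other cells were read beside these results, since in whole liver fewer cells of a type and less RNA per cell cannot be told apart. None of 8 tested pericentral and none of 8 tested periportal markers passed the thresholds of the study, with medians of 0.03 and 0.00, against -0.19 over all genes. Of all genes, 2.3% were higher and 6.56% lower under those thresholds. At an adjusted p under 0.05 2 pericentral markers and 1 periportal marker were lower, beside 12.7% of all genes. Serpina1a of the hepatocyte list was higher at that threshold (1.34, adjusted p = 0.0186). The summed mRNA of the pericentral list was 959.7 and 794 RPKM in HF and 1098 and 1189 RPKM in HB, and that of the periportal list 6089 and 4388 RPKM in HF and 5825 and 5408 RPKM in HB. Of 3 erythroid markers, Hbb-bs rose from 75.2 and 67.9 RPKM in HF to 265 and 643 RPKM in HB (2.51 ± 0.39, adjusted p = 0.00526). Alas2 was higher at the adjusted threshold alone (1.09, adjusted p = 0.0227). Hba-a1 overlapped between the groups, at 154 and 109 RPKM in HF and 79.4 and 296 RPKM in HB (0.24, adjusted p = 0.747), and the erythroid sum was 251 and 209.9 RPKM against 395 and 1005 RPKM. Fabp2, on the intestine list and also made in liver, rose from 78.7 and 82.0 RPKM to 219.7 and 174 RPKM (1.27 ± 0.26, adjusted p = 0.00957), with Lct at 0. The Hbb-bs call was kept under 12 of 13 alternatives and that of Fabp2 under 10, lost without the first (1.24) and without the second (1.30) HF library. Kupffer cell, endothelial and stellate lists (5 tested genes each) and the 1 tested cholangiocyte and 1 tested adipocyte marker had none called in mRNA under the thresholds of the study. At the adjusted threshold Cd5l, a Kupffer cell marker, was higher in mRNA (1.27, adjusted p = 0.0144), and in footprints Stab2, an endothelial marker, was called lower (-1.25, unadjusted p = 0.0474). Of all genes, 5.01% were higher in mRNA at the adjusted threshold and 7.86% were called lower in footprints. In mRNA, lymphocyte and lung markers were all too low to test, with sums of at most 3.65 and 0.267 RPKM. The part of these cells in the P450 results was not tested.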

How the data were processed

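The authors deposited RPKM per gene symbol and library for RNA-seq and Ribo-seq of mouse liver. The submitters' processing notes name mm10 and edgeR, and the study's methods name FANSe2 for mapping. Whether footprints were counted over coding sequence or whole transcripts, and how reads that fit several genes were placed, is not given in the sources used here. Library totals (11661207 to 22543472 in RNA-seq, 141890 to 1056546 in Ribo-seq) and whole reads were recovered from the RPKM steps of 1 read, within 0.02 of a whole read for 99.99% of the values above 0. From RNA-seq, 4 entries that share a symbol were left out.

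Genes that reached a mean of 1 RPKM entered limma 3.58.1 (R 4.3.3, eBayes with trend) on log2(RPKM + 1), two-sided, with Benjamini-Hochberg adjustment over all tested genes. Fold changes are on that scale, which understates changes of low genes. TE was tested on log2((footprint RPKM + 1)/(mRNA RPKM + 1)). The steps were tested on simulated reads, where 97.5% of 200 mRNA changes of 2 log2 units, 71.5% of 193 footprint changes of 2 and 94.5% of 199 TE changes of 4 were called. Of unchanged genes, 4 were called higher and 2 lower of 10474 in mRNA, 154 and 315 of 10775 in footprints, and 22 and 160 of 9061 in TE. Protein identity came from global alignment and shared windows from exact 28-base and 50-base matches in GENCODE M21 transcripts with Python 3.11.15 and Biopython 1.88.

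Other settings tried were leaving the filter out or raising it to a mean of 5 RPKM, a pseudocount of 0.1, a common sum, a common median, no variance trend, a replicate block, leaving out each library, an adjusted p under 0.05, voom on recovered reads and, for TE, an interaction model and crossed library numbers. The members and lists were chosen with earlier results of these data known. Named members are those called in any measure, the highest by mRNA of each subfamily and those at least 90% identical to another member where both reach 1 RPKM. Of the other lists, genes called in mRNA are named, and Por, Ephx2, Nqo1, Hba-a1, the list genes given at the adjusted threshold alone or from footprints, and a few low or abundant members were named after their values were seen.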

Additional observations from a re-analysis of the deposited data

How the results depend on the processing

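For mRNA, the members called higher and lower (1 and 4) became 1 and 2 without the filter (0.459% and 1.12% of all genes), 5 and 2 with a common median (5.05% and 2.72%), 2 and 4 without the variance trend (2.49% and 6.49%), and, at an adjusted p under 0.05, 6 and 4 (5.01% and 12.7%). With single libraries left out there were 2 to 4 higher and 3 to 4 lower, beside 1.59% to 4.67% and 5.05% to 9.79% of all genes. For footprints (0 and 0), there was 1 lower without the filter (8.79%), 8 lower with a common sum (24.3% of all genes), 1 higher with a common median (3.12%) and 1 higher with voom (3.91%), and leaving out each library gave 0 to 2 higher and 0 to 3 lower (0.551% to 5% and 3.86% to 22.5%), with 0 in both directions where an HF library was left out. For TE (1 and 1), there were 0 higher with a pseudocount of 0.1 (1.45%), 0 higher and 7 lower with a common sum (0.437% and 13.8%), 0 lower with a common median (4.24%) and 0 in each direction by adjusted p. With single libraries left out there were 0 to 1 higher and 0 to 3 lower (0.666% to 4.78% and 1.26% to 13.3%). Where a group is left with 1 library, its spread is taken to be that of the other group. The cause was not tested in any of these cases.

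Same-numbered libraries of HF and HB did not deviate together (correlation across genes of -0.10 in mRNA and -0.01 in footprints), nor did RNA-seq and Ribo-seq libraries of 1 number (-0.00 in HF and -0.08 in HB), and with 2 libraries a group the numbers are not taken as pairs. With the replicate block, 6 members were higher and 4 lower in mRNA (4.66% and 11.5% of all genes), 0 and 0 in footprints (1.89% and 5.76%), and 0 higher and 2 lower in TE (1.41% and 4.99%). With crossed numbers in the block, chosen after seeing the data, 6 members were higher and 4 lower in mRNA (4.44% and 12.2%).

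Of named members, directions turned in footprints with a common sum for Cyp2c29 (-0.54), Cyp2c50 (-0.24), Cyp2c54 (-0.14) and Cyp2c68 (-0.43), and, where the change was within its SE, for Cyp2a5 (-0.78), Cyp2a12 (-0.58), Cyp2d10 (-0.79) and Cyp2d11 (-0.69). Over all measures and alternatives there were 53 such turns, 47 of them of changes within their SE. Leaving out each library, the change ran from -3.68 to 0.25 for Cyp2d13 and from -4.10 to 0.50 for Cyp2u1 in footprints and from -2.42 to 2.59 for Cyp2d13 in TE, all with 0 footprints in the second HB library. Footprint depth limits what could be seen, with 10 of 33 members at the floor in that library.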
